A study of Danio rerio with 20 samples.

Results

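The genes described here encode proteins of the red cell and its membrane: cahz (ENSDARG00000011166), slc4a1a (ENSDARG00000012881), rhag (ENSDARG00000019253), epb41b (ENSDARG00000029019) and tubb1 (ENSDARG00000053066). They were chosen by name, 5 of the 26651 gene IDs in the deposited tables, and all 5 were found on each of the 20 plates. The measurement was SORT-seq, in which single cells are sorted into the wells of a plate and each transcript receives a barcode of its well and a random tag, the unique molecular identifier (UMI), whose count approximates the number of transcripts. A well counted as a cell when it held 1500 UMIs or more, which gave 6116 cells.

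All cells came from zebrafish embryos transgenic for tg(kdrl:mCherry-CAAX/cd41:eGFP) and were sorted as mCherry-positive with low eGFP, a gate used to enrich hematopoietic stem and progenitor cells (HSPCs). From the aorta-gonad-mesonephros region (AGM) at 36 hpf there were 4 plates of control embryos (C1 to C4, 1321 cells), 5 plates of embryos treated with LY294002, an inhibitor of PI3K (L1 to L5, 1519 cells), and 3 plates that held both treatments (X1 to X3, 876 cells). From the caudal hematopoietic tissue (CHT) at 5 dpf there were 2 plates each of controls (W1 and W2, 542 cells), LY294002-treated embryos (V1 and V2, 501 cells), ptena-/-ptenb-/- mutants (M1 and M2, 687 cells) and their siblings (S1 and S2, 670 cells). The mutants were picked by their phenotype. The labels call the controls wildtype, and by the study's methods they received the solvent DMSO. Embryos were pooled before sorting, and nothing says that plates of a group came from separate pools, so that p-values measure the spread between plates, which may be technical. The labels of the CHT plates state that some wells belong to a layout that is not used here, and every well that passed the UMI minimum was kept.

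Red cells carry carbon dioxide largely as bicarbonate. Carbonic anhydrase inside the cell interconverts carbon dioxide and bicarbonate, and the anion exchanger of the membrane passes bicarbonate out against chloride. The exchanger also anchors the membrane to a spectrin and actin skeleton that gives the cell its shape and strength. Cahz is the carbonic anhydrase of zebrafish red cells, slc4a1a encodes the anion exchanger, rhag encodes the Rh-associated glycoprotein (in mammals a channel for ammonium and gases), and epb41b encodes a linker between the skeleton and the membrane. Tubb1 is a beta tubulin whose mammalian counterpart is best known from platelets and their precursors.

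The plates held 1837137 to 8298215 UMIs, with a median of 5575 to 15390 UMIs a cell. No cell was identical to a cell of another plate. AGM plates fell into an early sort period (C1, C2, L1, L2, X1 and X2, sort days 1 to 4) and a late one (the other 6 plates, days 10 to 12). All control and LY294002 plates of the CHT were sorted on day 13, and those of pten mutants and siblings on days 8 and 9. S1 was sorted on day 8, M2 on day 9, and M1 and S2 on both. With 2 plates a group, sort day cannot be separated from genotype. Cells were clustered without the 5 genes, separately for the AGM, for CHT control with LY294002 and for CHT mutants with siblings, and clusters were called HSPC-like, erythrocyte-like and so on from 66 marker genes. Levels are in CPM, the UMIs of a gene relative to all UMIs of the summed cells on the usual CPM scale, and are given as mean ± SD over plates. In such sums, fewer cells that express a gene and less RNA of it per cell cannot be told apart.

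The 5 genes were low in the AGM and high in the CHT on every plate. For cahz, the AGM control plates C1 to C4 held 22.3, 51.9, 89.0 and 75.0 CPM, and the CHT control plates W1 and W2 held 2036 and 1969 CPM. For slc4a1a the same plates held 29.4, 57.8, 108.4 and 131.1 CPM against 3849 and 4092 CPM. For rhag they held 69.1, 52.1, 58.3 and 26.9 CPM against 1215 and 1260 CPM. The stages did not overlap for any of these genes. For epb41b the values were 13.5, 15.7, 17.2 and 22.5 CPM in the AGM and 562.6 and 543.2 CPM in the CHT, and for tubb1 17.0, 18.3, 22.8 and 12.5 CPM against 291.4 and 308.7 CPM. Over all 20 plates, the lowest CHT plate lay above the highest AGM plate for each gene: 626.6 against 270.6 CPM for cahz, 2435 against 480.9 for slc4a1a, 1046 against 69.1 for rhag, 385.4 against 71.9 for epb41b and 202 against 50.9 for tubb1. How many of all genes separate the plates in this way was not computed.

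In edgeR's quasi-likelihood test between control plates, all 5 were higher in the CHT, beside 30.7% of all genes tested that passed in either direction. The difference was 5.93 (SE 0.60) on the log2 scale for slc4a1a (61.1-fold, adjusted p = 0.0011), 5.41 (0.52) for cahz (42.5-fold, adjusted p = 0.00099), 5.35 (0.25) for epb41b (40.8-fold, adjusted p = 0.00014), 4.97 (0.32) for rhag (31.4-fold, adjusted p = 0.00031) and 4.46 (0.23) for tubb1 (21.9-fold, adjusted p = 0.00016), with 4 plates against 2. Tissue, stage and sort day changed together in this comparison and cannot be told apart. The median over all genes was -0.18 on the same scale. Without cells that held 10% or more of their UMIs from globins, the differences were 8.38 for cahz and 8.04 for slc4a1a, and all 5 passed.

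**Figure D1:**
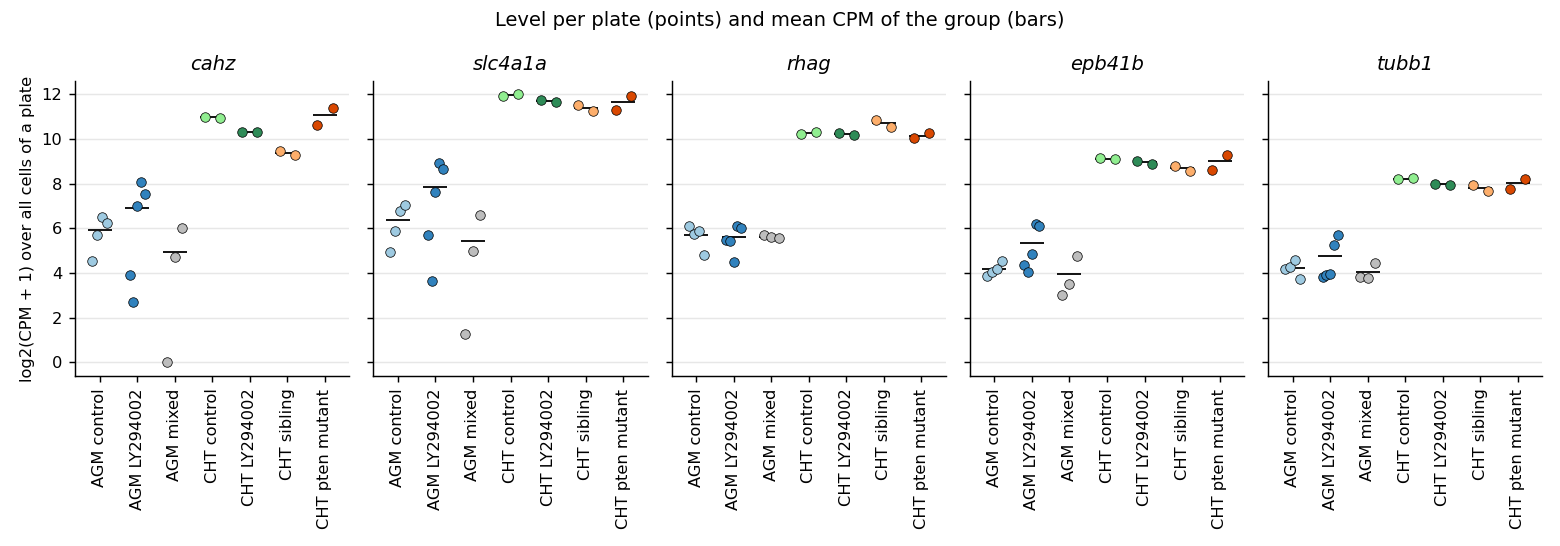
Level of each of the 5 genes on each plate, as log2(CPM + 1), by group of plates; points are plates and bars give the logarithm of the mean CPM of a group. All 8 CHT plates lie above all 12 AGM plates for every gene, and among CHT groups cahz is lowest in the sibling plates (706.8 and 626.6 CPM) while rhag is highest there (1854 and 1474 CPM).

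The share of cells with a UMI moved in the same way. In the CHT controls, 99.3% of cells had a slc4a1a UMI, 86.9% a cahz UMI, 85.4% a rhag UMI, 80.1% an epb41b UMI and 61.8% a tubb1 UMI, as means over the plates. In the AGM controls these shares were 11.2, 5.40, 9.89, 9.48 and 8.24% in the same order. After each cell was thinned to 1500 UMIs, the CHT shares were 90.1, 61.4, 65.3, 46.3 and 32.1% and the AGM shares 2.45, 1.68, 3.76, 2.11 and 2.12%.

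Among CHT groups, the 5 genes did not share an order. For cahz the order was mutant (2137 ± 796 CPM), control (2002 ± 47.4), LY294002 (1268 ± 3.54) and sibling (666.7 ± 56.7), with n = 2 in each. The mutant plates (1574 and 2700 CPM) straddled the controls, while the LY294002 plates (1265 and 1270 CPM) and the sibling plates lay apart from both of these and from each other. For rhag the siblings were highest (1664 ± 269 CPM), and controls (1238 ± 31.8), LY294002 (1198 ± 60.1) and mutants (1142 ± 135) overlapped. For slc4a1a the order was control (3970 ± 172 CPM), LY294002 (3366 ± 117), mutant (3230 ± 943) and sibling (2691 ± 362), with mutant plates at 2563 and 3896 CPM. The order of epb41b was control (552.9 ± 13.7 CPM), mutant (513.5 ± 166), LY294002 (495.2 ± 29.1) and sibling (413.2 ± 39.4), with mutant plates at 396.4 and 630.7 CPM. For tubb1, controls (291.4 and 308.7 CPM) were followed by mutants (257.6 ± 53.4), LY294002 (251.2 ± 6.72) and siblings (223.4 ± 30.3). For slc4a1a, epb41b and tubb1, the control, LY294002 and sibling plates did not overlap with each other, and the mutant plates overlapped with all of them. How often this holds among all genes was not computed.

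Within the AGM the groups overlapped for every gene. The means of control, LY294002 and mixed plates were 59.5 ± 29.2 (n = 4), 120.4 ± 113 (n = 5) and 29.5 ± 31.9 CPM (n = 3) for cahz and 51.6 ± 17.9, 47.6 ± 18.8 and 48.7 ± 2.48 CPM for rhag. The spread of cahz ran from 0 CPM on X1 to 270.6 CPM on L4. X1 held no cahz UMI in 142 cells, which allows up to 1.43 CPM, or 2.11% of cells with a UMI (3 counts, counting error only).

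HSPC-like cells of the CHT held more of these genes than those of the AGM, but the 2 classes differed in their markers. A marker score is the mean log2 difference of a marker set from the other clusters of its clustering. The CHT class scored 0.79 for HSPC markers and 0.664 for thrombocyte and erythrocyte markers, against 0.863 and 0.204 in the AGM class. The part of erythroid progenitors in the CHT class was not tested. The rise was not limited to HSPC-like cells. Neutrophil-like cells of W1 and W2 held 697 and 739 CPM of slc4a1a and 121 and 127 CPM of cahz. In neutrophil-like cells of the AGM controls the highest plate held 77.1 and 50.3 CPM. HSPC-like cells of the CHT controls held 2794 CPM of slc4a1a and 527 CPM of cahz. The source of the UMIs in neutrophil-like cells was not tested. In edgeR's test of HSPC-like cells between control plates, slc4a1a was higher in the CHT by 4.24 (SE 0.50) on the log2 scale (adjusted p = 0.00054), rhag by 4.15 (0.29; adjusted p = 4.47e-05), epb41b by 3.81 (0.16; adjusted p = 1.23e-05), tubb1 by 2.69 (0.25; adjusted p = 0.00017) and cahz by 2.25 (0.43; adjusted p = 0.0059). All 5 passed, beside 28.7% of all genes tested, and the median of all genes was -0.08. The call of cahz was lost without W1 (adjusted p = 0.063) or W2 (adjusted p = 0.070). The AGM class took in 9 control cells with 10% or more globin among 535, which held 91.3% of its cahz and 84.6% of its slc4a1a UMIs, against 10.6% of its rhag, while the CHT class had 0 such cells among 144. Without these cells the AGM control plates held 11.6 ± 9.77 in place of 134 ± 75.8 CPM of cahz, and 31.8 ± 26.3 in place of 179 ± 111 CPM of slc4a1a (n = 4). The differences between stages were then 5.77 for cahz (adjusted p = 0.00012), 6.83 for slc4a1a, 5.00 for epb41b, 4.35 for rhag and 2.99 for tubb1, and all 5 passed. In the comparison of the whole class, 3 of 6 skin genes and 3 of 7 thrombocyte genes were also higher in the CHT, and 1 thrombocyte gene was lower.

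By cell class, the erythrocyte-like cells of the CHT held the highest levels of cahz, slc4a1a, epb41b and tubb1, while rhag was as high in HSPC-like cells. Clusters are formed from the genes of the same cells, so class levels are given as a description with no test. The erythrocyte-like cluster had all 4 markers of erythrocytes raised in both CHT clusterings. On the control and LY294002 plates, cahz stood at 3419 ± 48.8 CPM in erythrocyte-like cells (411 cells, n = 4 plates), 469 ± 66.5 CPM in HSPC-like cells (291 cells), 117 ± 81.9 CPM in myeloid-like cells (207 cells) and 94.1 ± 51.5 CPM in neutrophil-like cells (73 cells, n = 3). The 4 erythrocyte-like values of cahz were close together, 3456 and 3426 CPM on W1 and W2 and 3348 and 3447 CPM on V1 and V2. Slc4a1a fell off less steeply across classes, at 6288 ± 657, 2789 ± 82.7, 565 and 555 CPM in the same order. Epb41b stood at 905 ± 108, 401 ± 46.0, 72.7 and 68.4 CPM and tubb1 at 497 ± 58.7, 201 ± 25.1, 11.3 and 12.9 CPM.

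Rhag, the Rh-associated glycoprotein, was as high in HSPC-like as in erythrocyte-like cells: 1592 ± 61.2 against 1597 ± 184 CPM, with 120 CPM in myeloid-like and 110 CPM in neutrophil-like cells. Its plates W1, W2, V1 and V2 ranged in erythrocyte-like cells from 1420 to 1821 CPM, so that the classes overlapped. The HSPC-like class of the CHT scored 0.664 for thrombocyte and erythrocyte markers beside 0.79 for HSPC markers. In the controls, erythrocyte-like cells were 45.0% of the cells and held 90.9% of the cahz UMIs, 79.8% of tubb1, 77.6% of epb41b, 76.5% of slc4a1a and 61.9% of rhag. On the LY294002 plates, HSPC-like cells were 29.3% of the cells and held 50.5% of the rhag UMIs.

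**Figure D2:**
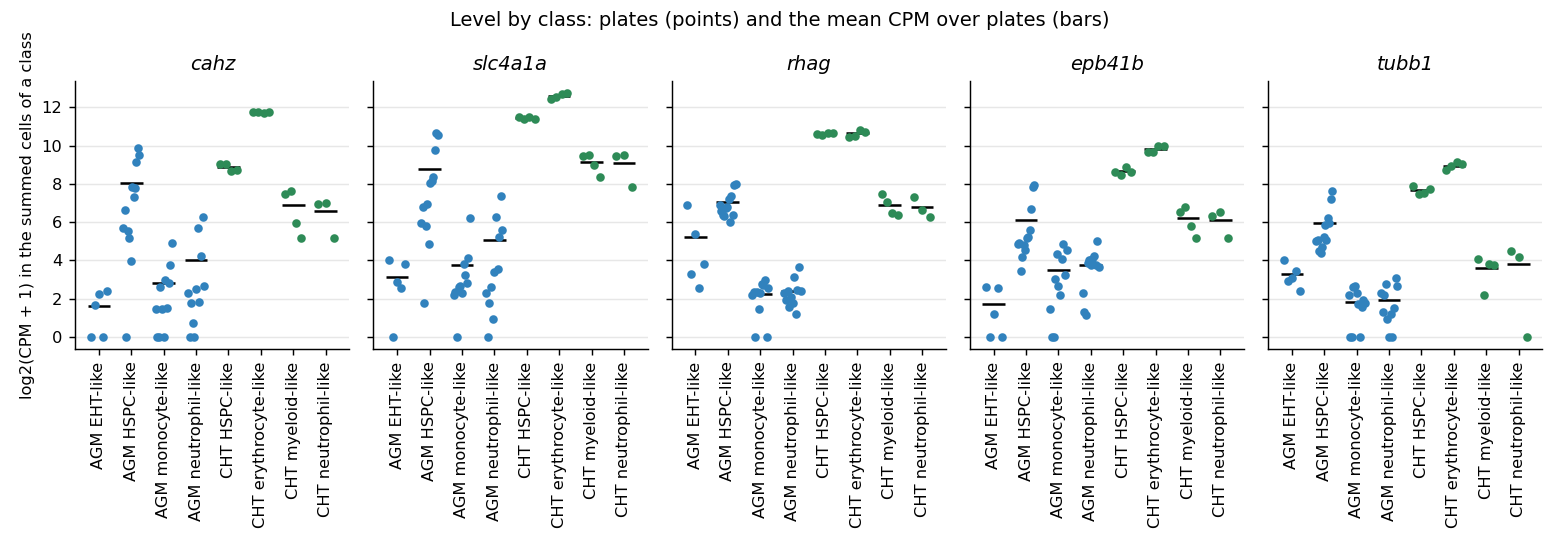
Level of each gene as log2(CPM + 1) by cell class, in the AGM (blue, 12 plates) and on the control and LY294002 plates of the CHT (green, 4 plates); points are plates that held 20 or more cells of the class, and bars give the logarithm of the mean CPM. Cahz falls from 3419 CPM in erythrocyte-like to 469 CPM in HSPC-like cells of the CHT, while rhag stands at 1597 and 1592 CPM.

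The mutant and sibling plates showed the same division between cahz and rhag. Erythrocyte-like cells there came almost all from mutants (80 cells on M1 and 157 on M2, against 2 on S1 and 9 on S2). The mutant erythrocyte-like cells held 7072 ± 221 CPM of cahz, 8602 ± 480 of slc4a1a, 2065 ± 94.7 of rhag, 1339 ± 141 of epb41b and 704 ± 40.9 of tubb1. A cluster led by blf, myb and tal1 held 575 cells and most sibling cells (82 on M1, 55 on M2, 244 on S1 and 194 on S2). It is called P1 here and was left unnamed, because its leading genes hold HSPC markers while its highest score was for thrombocytes and erythrocytes. In P1, cahz stood at 697 ± 93.8 CPM and rhag at 2143 ± 110 CPM, so that rhag was at the level of the erythrocyte-like cells and cahz was not. Slc4a1a stood there at 3128 ± 215, epb41b at 516 ± 22.7 and tubb1 at 258 ± 53.8 CPM. On the sibling plates P1 made up 65.4% of cells and held 94.8% of the rhag UMIs, while 11 erythrocyte-like cells, 1.64% of the cells, held 16.5% of the cahz UMIs.

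Free RNA can give UMIs in cells that do not express a gene. Levels in neutrophil-like cells are given here for this reason, but the source of their UMIs was not tested. On 5 CHT plates with 20 or more neutrophil-like cells (W1, W2, V2, S1 and S2), the level in neutrophil-like cells was 4.50% of the plate's own level for tubb1, 6.32% for cahz, 8.62% for rhag, 13.5% for epb41b, 14.1% for slc4a1a and 10.1% for the globins. A slc4a1a UMI was found in 97.9% of neutrophil-like cells of the control plates, in 55.6% on V2 and in 92.2% on the sibling plates. A single UMI of slc4a1a in a CHT cell therefore did not set red cells apart. All 5 genes together were found in 83.0 to 94.0% of erythrocyte-like cells of a plate, in 46.8 to 65.6% of HSPC-like cells of the CHT, in 63.4 to 83.6% of P1 cells and in 0 to 4.55% of neutrophil-like cells.

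An order of the cells that does not use the members was taken from the globins, as the share of the UMIs of a cell from 7 embryonic globin genes. Levels were then computed over UMIs without globins, so that globin itself does not dilute them. Over CHT plates with at least 10 cells in a bin, cahz stood at 98.3 ± 40.4 CPM in cells with under 0.1% globin (560 cells, n = 5 plates), 458 ± 234 CPM at 0.1 to 1% (1049 cells, n = 8), 3571 ± 1791 CPM at 1 to 10% (644 cells, n = 8) and 11710 ± 5096 CPM at 10% or more (133 cells, n = 6). Slc4a1a stood at 768, 2208, 6633 and 11390 CPM, epb41b at 110, 337, 1022 and 1458 CPM and tubb1 at 50.3, 164, 554 and 874 CPM in the same bins. These 4 genes had a higher mean in each further bin.

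Rhag differed. It stood at 692 ± 436, 1291 ± 550, 2029 ± 340 and 1678 ± 268 CPM, with its highest mean at 1 to 10% globin and a share of cells with a rhag UMI of 66.0, 77.7, 99.4 and 99.0%. The bins do not hold the same plates, and the last one holds no sibling plate. At 1 to 10% globin S1 and S2 held 2639 and 2166 CPM, and the other plates 1630 to 2343 CPM. The bin under 0.1% globin had enough cells on M1, M2, S1, S2 and V2. Its mean for rhag stood above the levels in neutrophil-like cells of S1, S2 and V2. These were 136, 126 and 76.5 CPM, taken over all UMIs. In the siblings, 30.6% of all rhag UMIs lay in cells with under 0.1% globin and 43.3% in cells with 0.1 to 1%. The 1 to 10% bin held 73.6% of the cahz UMIs in controls, 57.9% with LY294002, 61.6% in mutants and 59.2% in siblings.

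**Figure D3:**
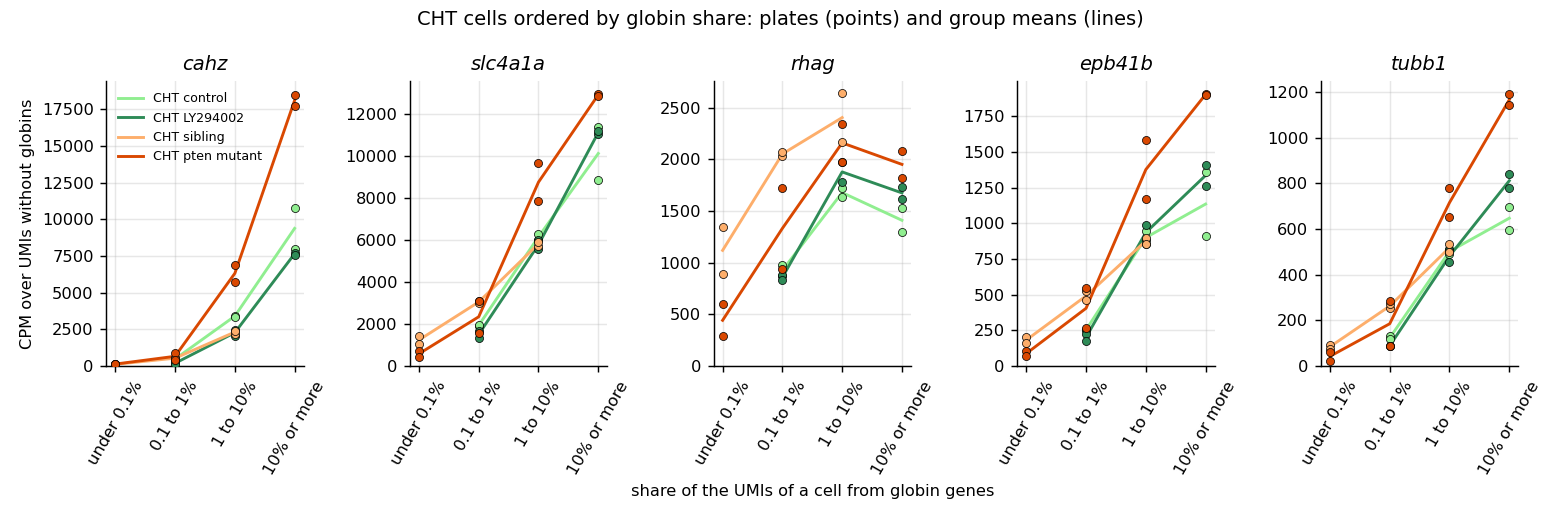
Level of each gene in CPM (over UMIs without globins, linear axis from 0) in CHT cells binned by the share of their UMIs from globins; points are plates and lines join the means of control, LY294002, mutant and sibling plates. The cahz line of the mutants is the highest from 1% globin on (5731 and 6894 CPM at 1 to 10%, against 2201 and 2412 CPM in siblings). Rhag is the gene whose mean over plates is not highest in the last bin, which holds no sibling plate.

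The likeness of gene patterns was read from the same plates and classes of the CHT, so that it adds no separate evidence for a division between cahz and rhag. Over 30 sums by plate and class of the CHT, Pearson's r of log2(CPM + 1) was highest for cahz with HBE1 (0.968), a globin by its name, alas2 (0.960), the first enzyme of heme synthesis in red cells, and hbae1.2 (0.958), among 2324 genes with a mean of at least 50 CPM. The nearest genes to rhag were klf1 (0.968), an erythroid transcription factor, and the skeleton genes sptb (0.959) and add2 (0.953). These were not particular to rhag: with slc4a1a, klf1 stood at 0.972 and sptb at 0.971. Epb41b was closest to FTL (0.975), a ferritin chain, sptb (0.972) and the heme enzyme uros (0.972). Slc4a1a was closest to FTL (0.980), ENSDARG00000096667 (0.976) and ENSDARG00000042310 (0.975), and tubb1 to add2 (0.961), ENSDARG00000042310 (0.959) and ENSDARG00000052815 (0.949). The mean of the 5 genes was closest to FTL (0.984), ENSDARG00000042310 (0.982) and klf1 (0.980). Between members, r ran from 0.840 for cahz with rhag to 0.992 for epb41b with slc4a1a. The sums share plates and the makeup of the classes, so these values are a description.

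In the AGM, the 5 genes came from few cells and from different ones. Of the 1321 control cells, 10 had 10% or more of their UMIs from globins. These 10 cells held 89.1% of all cahz UMIs, 79.9% of slc4a1a and 44.2% of epb41b, but 15.3% of tubb1 and 9.95% of rhag. The 1301 cells with under 0.1% globin, 98.5% of the cells, held 86.7% of the rhag UMIs and 80.1% of tubb1, against 8.47% of cahz, 13.9% of slc4a1a and 52.2% of epb41b. With LY294002, 32 of 1519 AGM cells had 10% or more globin and held 85.4% of the cahz and 28.9% of the rhag UMIs. The rhag share differed by plate. L1 and L2 had 0 such cells, while on L3, L4 and L5 they held 69.1, 49.4 and 68.7% of the rhag UMIs. Of the tubb1 UMIs they held 70.2, 47.8 and 60.5% on these 3 plates.

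**Figure D4:**
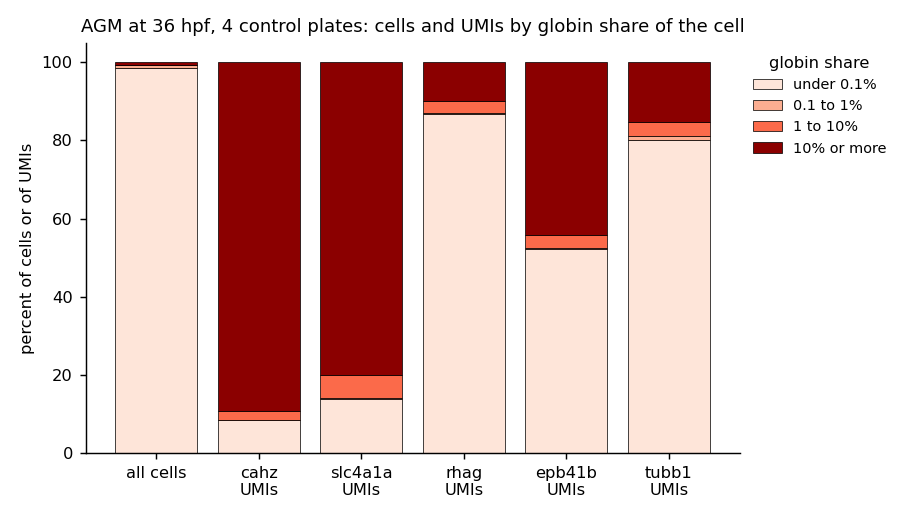
AGM control plates: percent of cells and percent of the UMIs of each gene by the globin share of the cell, stacked to 100. The 10 cells with 10% or more globin hold 89.1% of cahz and 9.95% of rhag UMIs, and the cells with under 0.1% globin, 98.5% of all, hold 86.7% of rhag and 80.1% of tubb1 UMIs.

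Most AGM cells rich in rhag and poor in globin were HSPC-like. There were 91 AGM cells with 5 or more rhag UMIs and under 0.1% globin, of which 85 were HSPC-like and 4 EHT-like (cells of the endothelial-to-hematopoietic transition). They were 35 of 1301 such control cells, 28 of 1152 with LY294002 and 28 of 863 on the mixed plates. A UMI of tal1, a blood progenitor factor, was found in 82.4% of them (exact 95% binomial interval 73.0 to 89.6%), against 16.8% of the 3039 cells without rhag. For epor, the erythropoietin receptor, the shares were 57.1% (46.3 to 67.5%) and 3.85%, and for gata1a, the main erythroid transcription factor, 42.9% (32.5 to 53.7%) and 3.26%. Tubb1 was found in 68.1% (57.5 to 77.5%) against 5.30%, while cahz was found in 12.1% (6.19 to 20.6%) against 4.08%. Epb41b was found in 36.3% against 8.52% and slc4a1a in 25.3% against 10.9%. The median depth was 13803 against 11606 UMIs, and thinned to 1500 UMIs the shares were 35.2 against 3.98% for tal1, 13.2 against 0.461% for epor, 15.4 against 0.625% for gata1a, 20.9 against 1.02% for tubb1 and 2.2 against 0.691% for cahz. Not every marker kept its direction: uros was found in 20.9 against 9.41%, and thinned in 0 against 1.32%. Of the 3039 cells without rhag, 1044 (34.4%) were HSPC-like, so that class makeup and rhag cannot be told apart in these shares. Tal1, epor and gata1a were also among the markers that named the clusters. The rhag-rich cells were chosen by their rhag count after its values were seen, and the intervals cover counting error only.

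Most of the globin-rich cells of the AGM lay in the HSPC-like class: 9 of 10 in controls, 27 of 32 with LY294002 and 4 of 4 on the mixed plates. Within this class the level varied widely between plates. Cahz ranged from 0 to 951.4 CPM over 12 plates (260 ± 318 CPM), slc4a1a stood at 436 ± 574, rhag at 130 ± 64.2, epb41b at 69.0 ± 82.3 and tubb1 at 60.8 ± 54.4 CPM. The late LY294002 plates L3, L4 and L5 had the highest cahz (574.6, 951.4 and 736.3 CPM), and they also held 10, 15 and 7 cells with 10% or more globin against 1, 2, 3 and 4 on C1 to C4 and none on L1 and L2. Without cells of 10% or more globin, cahz stood at 19.4 ± 17.5 CPM in HSPC-like cells of the 12 plates, slc4a1a at 64.9 ± 81.5, rhag at 97.6 ± 40.5, epb41b at 20.7 ± 15.3 and tubb1 at 39.9 ± 25.8 CPM. The highest plate for cahz was then at 63.8 CPM. In the mean over the 12 plates, most of the level of cahz and slc4a1a in this class thus lay in globin-rich cells. Most of the mean level of rhag did not. This did not hold on every plate: over all cells of L3 and L5, globin-rich cells held 69.1 and 68.7% of the rhag UMIs. In other classes of the AGM rhag stood at 36.9 ± 47.0 CPM in EHT-like, 3.67 in monocyte-like and 4.31 CPM in neutrophil-like cells, and cahz at 2.04, 5.93 and 15.0 CPM.

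For LY294002 in the AGM, no member passed the test over all cells, where 0.239% of all genes passed. Sort day went largely with treatment within each sort period, which a term for the period does not take out. With the sort period as a term, the log2 differences were 1.05 (SE 0.34) for epb41b (adjusted p = 0.18), 0.79 (0.53) for slc4a1a (adjusted p = 0.50), 0.48 (0.39) for tubb1 (adjusted p = 0.58), 0.02 (0.35) for rhag (adjusted p = 0.98) and 0.01 (0.68) for cahz (adjusted p = 1.00). By edgeR 1 member, epb41b, had an unadjusted p under 0.05, and DESeq2 called it (adjusted p = 0.041). Without cells of 10% or more globin the differences were 1.38 for cahz (adjusted p = 0.21), 1.64 for slc4a1a (adjusted p = 0.22) and -0.53 for rhag (adjusted p = 0.55).

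Over all cells, the sort periods went in opposite directions for 4 of the 5 genes. In the early period, the ratio of LY294002 to control means (2 plates against 2) was 0.265 for cahz (9.82 against 37.1 CPM), 0.701 for rhag, 0.722 for slc4a1a, 0.774 for tubb1 and 1.20 for epb41b. In the late period (3 against 2) it was 2.37 for cahz (194 against 82.0 CPM), 1.20 for rhag, 3.00 for slc4a1a, 1.96 for tubb1 and 2.80 for epb41b. The differences of cahz, rhag, slc4a1a and tubb1 therefore did not keep their direction within both periods. Treatment and sort day cannot be told apart in these ratios. For cahz and slc4a1a the early ratios also rest on few cells. On C1, 1 cell with 10% or more globin held 92.9% of the cahz and 35.2% of the slc4a1a UMIs. On C2, 2 such cells held 93.5% and 93.8%, while L1 and L2 had 0 such cells. The direction of the early ratios without these cells was not tested.

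Within classes of the AGM no member passed edgeR's or DESeq2's test. In HSPC-like cells, where 0.0311% of all genes passed, the differences were 1.42 (SE 0.50) for epb41b (adjusted p = 0.32), 1.29 (0.57) for slc4a1a and 0.94 (0.41) for tubb1 (adjusted p = 0.41 for both), 0.57 (0.67) for cahz (adjusted p = 0.77) and 0.57 (0.36) for rhag (adjusted p = 0.56). Epb41b, slc4a1a and tubb1 had an unadjusted p under 0.05 there. Without cells of 10% or more globin, slc4a1a differed by 1.86 (adjusted p = 0.37), cahz by 1.48 (adjusted p = 0.36) and rhag by -0.011, and none passed. Late LY294002 plates were higher outside this class too. Neutrophil-like cells under 10% globin held 23.4, 90.2 and 47.9 CPM of slc4a1a on L3, L4 and L5, against 9.42 and 17.8 on C3 and C4. On the early plates they held 5.15 and 0.93 CPM on L1 and L2, against 3.91 and 0 on C1 and C2. In neutrophil-like cells, where 0.144% passed, epb41b (0.95, SE 0.45, adjusted p = 0.53) and slc4a1a (0.91, SE 0.68, adjusted p = 0.71) were the members with enough counts to be tested, and neither had an unadjusted p under 0.05. In EHT-like and monocyte-like cells no member had enough counts.

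For LY294002 in the CHT, cahz was lower on both treated plates (1265 and 1270 CPM) than on both control plates (2036 and 1969 CPM), but the difference of -0.57 (SE 0.13) on the log2 scale did not pass (adjusted p = 0.15). Only 0.0097% of all genes, 1 gene, passed in that test. The other members lay between -0.17 for tubb1 and 0.04 for rhag (adjusted p = 0.57 to 0.91). Cahz was the 1 member with an unadjusted p under 0.05 by edgeR, and DESeq2 called it (-0.57, adjusted p = 0.0056). Erythrocyte-like cells were 45.0% of the cells in controls and 33.3% with LY294002, and the part of this in the level of cahz was not tested.

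In erythrocyte-like cells, cahz did not follow its whole-plate difference. It differed by 0.14 (adjusted p = 0.61), while slc4a1a, epb41b, rhag and tubb1 were higher by 0.41 to 0.45 on the log2 scale without passing (slc4a1a 0.41, SE 0.12, adjusted p = 0.15), beside 0.592% of genes that passed. These differences are taken after TMM scaling, which CPM values do not carry. In CPM, the cahz plates of both groups overlapped, and their mean was slightly lower with LY294002. For slc4a1a the plates were 5491 and 6012 CPM in controls and 6784 and 6868 CPM with LY294002, and they did not overlap. How many of all genes lack overlap here was not computed. Without W2 slc4a1a passed. The 4 genes other than cahz had an unadjusted p under 0.05, and DESeq2 called none. In HSPC-like cells, where 0.348% passed, the widest difference was 0.42 (SE 0.17) for epb41b (adjusted p = 0.36), the 1 member there with an unadjusted p under 0.05. In myeloid-like cells cahz differed by -1.91 (SE 0.36, adjusted p = 0.21) and 0% of genes passed (0 of 3809 by edgeR, 247 of them at an unadjusted p under 0.05, among which were the 4 members tested). At a level near that of neutrophil-like cells, the myeloid-like cells held only 14 to 55 cahz UMIs a plate. Cahz passed there without W1 or without W2.

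In cells binned by globin content the difference of cahz was also below 0. In cells with 1 to 10% globin, where 0.542% of genes passed, cahz differed by -0.39 (SE 0.12, adjusted p = 0.16; 3428 and 3362 CPM in controls, 2469 and 2068 CPM with LY294002) and rhag by 0.36 (0.12, adjusted p = 0.17). Without V1, cahz passed at -0.50 (adjusted p = 0.040). Both had an unadjusted p under 0.05, and DESeq2 called no member in this bin or in a class of the CHT.

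In the pten mutants cahz was higher than in siblings, alone among the 5 genes over all cells. The plates held 1574 and 2700 CPM in mutants and 706.8 and 626.6 CPM in siblings and did not overlap. How many of all genes lack overlap between these plates was not computed. The difference was 1.70 (SE 0.26) on the log2 scale, 3.24-fold (adjusted p = 0.016, 2 plates against 2), beside 11.9% of all genes that passed. Without S1 the adjusted p was 0.065 and without S2 it was 0.084. Rhag differed the other way by -0.52 (SE 0.18) without passing (adjusted p = 0.12; 1046 and 1237 CPM against 1854 and 1474), and DESeq2 called it (-0.53, adjusted p = 0.041). Epb41b (0.33), slc4a1a (0.28) and tubb1 (0.23) did not pass (adjusted p = 0.36 to 0.44).

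The makeup of these plates differed, and its part in the whole-plate values was not tested. Sort day cannot be separated from genotype in any comparison of mutants with siblings. Erythrocyte-like cells were 34.5% of mutant and 1.64% of sibling cells, and held 88.9% of the cahz and 50% of the rhag UMIs of the mutants. This share depended on the number of clusters: with 7 in place of 5, 257 of 687 mutant cells (37.4%) and 158 of 670 sibling cells (23.6%) were erythrocyte-like. Skin genes summed to 24100 and 33860 CPM on the mutant plates against 683.6 and 6113 CPM on the sibling plates, and thrombocyte genes to 1155 and 1242 against 170.7 and 204.2 CPM. All 14 skin genes found were above 0 on both mutant plates, with krt94 at 0 on S1 and cyt1 and krt94 at 0 on S2. Of 10 thrombocyte genes, itgb3b and mpl were at 0 on S1 and mpl on M2. Without the cluster led by skin genes cahz differed by 2.10 (adjusted p = 0.0099), and without cells of 10% or more globin by 1.39 (adjusted p = 0.025).

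In cells binned by globin content, cahz, slc4a1a and epb41b rose in the mutants, and tubb1 and rhag did not pass. In cells with 1 to 10% globin, cahz stood at 5731 and 6894 CPM in mutants against 2201 and 2412 CPM in siblings, a difference of 1.44 (SE 0.15), 2.71-fold (adjusted p = 1.26e-05). Slc4a1a stood at 7852 and 9678 against 5733 and 5915 CPM (0.58, SE 0.14, adjusted p = 0.0105) and epb41b at 1171 and 1583 against 894.8 and 858.4 CPM (0.64, SE 0.19, adjusted p = 0.040). The plates of these 3 genes, and those of tubb1, did not overlap between genotypes. The share of all genes without overlap was not computed, and 11.9% of all genes passed the test. For tubb1 the plates were 650.3 and 779.5 against 535 and 500.8 CPM (0.46, SE 0.20, adjusted p = 0.16), and for rhag 1974 and 2343 against 2639 and 2166 CPM (-0.16, SE 0.17, adjusted p = 0.57). Without S1 or S2 only cahz passed, and without M2 epb41b was lost (adjusted p = 0.30).

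Within that bin the mutant cells were the richer in globin, with means of 4.76 and 5.67% on M1 and M2 and 2.86 and 3.26% on S1 and S2. Alas2 stood at 3283 and 4504 CPM in the 1 to 10% bin of mutants, against 1173 and 1187 CPM in siblings. In cells with 2 to 5% globin the globin means were closer, at 2.95 and 3.72% against 2.93 and 2.91%. Alas2 was still higher in this bin, at 2232 and 2803 against 1374 and 973 CPM. HBE1 stood at 13430 and 12810 against 11600 and 9506 CPM, so the bin was not matched for all red cell genes. Cahz stood there at 4573 and 4823 against 2544 and 2298 CPM, a difference of 0.90 (adjusted p = 0.0072) over 19, 36, 28 and 18 cells on M1, M2, S1 and S2, and none of the other members passed. With HBE1 and hbz counted as globins, cahz in the 1 to 10% bin differed by 1.07 (adjusted p = 0.010), and again none of the others passed. Skin genes summed to 9096 and 1626 CPM in the 1 to 10% bin of M1 and M2 against 92.1 and 610 CPM in siblings, and thrombocyte genes to 483 and 517 against 226 and 177 CPM, with itga2b, itgb3b and mpl at 0 on all 4 plates. Without the skin-led cluster cahz differed in this bin by 1.47 (adjusted p = 1.51e-05).

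Clustering the mutant and sibling cells into 7 clusters gave an erythrocyte-like class with enough cells of both genotypes (92, 165, 86 and 72 cells on M1, M2, S1 and S2). In it, cahz stood at 5878 and 7135 CPM in mutants against 1886 and 2000 CPM in siblings, a difference of 1.80 (SE 0.17), 3.47-fold (adjusted p = 1.67e-08). Slc4a1a was higher by 0.72 (0.16; adjusted p = 0.0021), epb41b by 0.71 (0.19; adjusted p = 0.011) and tubb1 by 0.65 (0.20; adjusted p = 0.025), while rhag differed by -0.09 (0.18; adjusted p = 0.78), beside 16.5% of genes that passed. Without S1 or S2 cahz alone passed, and without M2 epb41b (adjusted p = 0.11) and tubb1 (adjusted p = 0.12) were lost. The class joined a cluster shared by both genotypes with one that held 30 and 80 cells on M1 and M2 and 0 and 1 on S1 and S2. In the shared cluster alone, cahz stood at 3534 and 4232 against 1886 and 1876 CPM (1.02, adjusted p = 0.00082), at a mean globin share of 3.13 and 3.80% against 2.42 and 2.45%, and the other members did not pass. In the class as a whole, 6 of 6 skin genes (median 2.21) and 5 of 6 thrombocyte genes (median 1.17) tested were higher in mutants as well. Skin genes summed there to 2002 and 1635 CPM on M1 and M2 against 94.5 and 519.6 CPM on S1 and S2, and thrombocyte genes to 392.7 and 499.3 against 210.8 and 183 CPM.

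In P1 and in myeloid-like cells, no member passed between genotypes. P1 took in cells that fell in the erythrocyte-like class of 7 clusters, and more of them from siblings: of the cells called erythrocyte-like with 7 clusters, 147 of 158 sibling cells lay in P1, against 36 of 257 mutant cells. In P1, where 0.16% of genes passed, the differences were -0.003 (SE 0.19) for cahz, 0.10 for rhag, 0.04 for epb41b, -0.06 for slc4a1a and -0.21 for tubb1 (adjusted p = 0.82 for rhag and 1.00 for cahz), none with an unadjusted p under 0.05. In myeloid-like cells, where 0.829% passed, cahz differed by 1.21 (0.32; adjusted p = 0.13; 29 to 99 UMIs a plate) and rhag by -0.72, and cahz was the 1 member with an unadjusted p under 0.05. DESeq2 called no member in either.

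**Figure D5:**
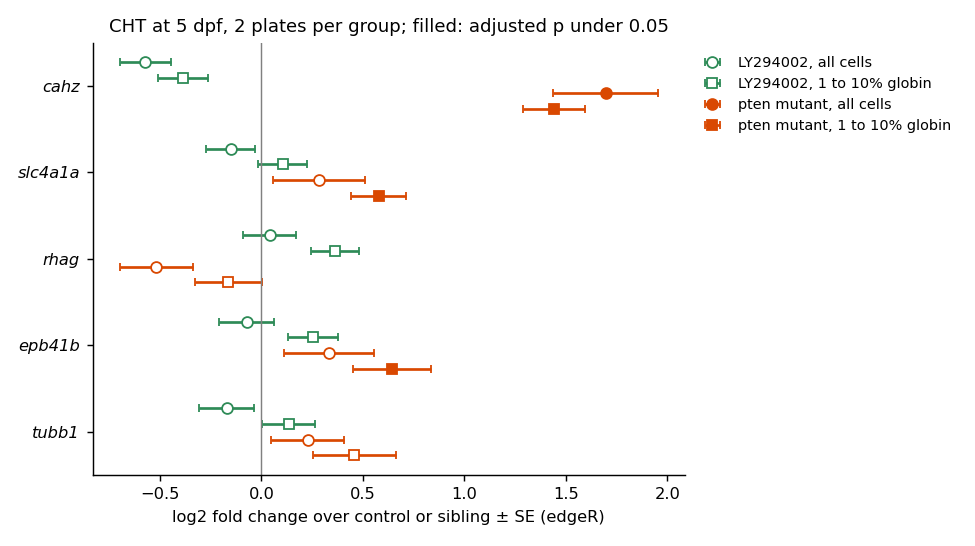
Log2 fold change with its SE for each gene in the CHT, LY294002 against control and pten mutant against sibling, over all cells (circles) and over cells with 1 to 10% globin (squares); filled symbols have an adjusted p under 0.05. The mutant effect on cahz is 1.70 over all cells and 1.44 at 1 to 10% globin, and the LY294002 effect is -0.57 and -0.39. For rhag the mutant effect is -0.52 and -0.16 and the LY294002 effect 0.04 (SE 0.13) and 0.36, none of them with an adjusted p under 0.05.

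For cahz, the difference of mutants from siblings was not the same as that of LY294002 from controls. Both are called effects here, but sort day cannot be separated from genotype in the former. The comparators also differed. Over all cells the siblings held 706.8 and 626.6 CPM of cahz and the controls 2036 and 1969 CPM, and the mutants (1574 and 2700 CPM) straddled the controls. The mutant effect minus the LY294002 effect was 2.29 (SE 0.30) over all cells (adjusted p = 0.0098), where 2.87% of all genes passed, and 1.80 (0.19) in cells with 1 to 10% globin (adjusted p = 3.09e-05), where 7.17% passed. Over all cells the call was lost without W1 (adjusted p = 0.052) or V1 (adjusted p = 0.062). For rhag the difference of effects was -0.54 (SE 0.21, adjusted p = 0.22) and -0.55 (0.19, adjusted p = 0.099). Slc4a1a (0.46 and 0.44), epb41b (0.43 and 0.36) and tubb1 (0.42 and 0.29) did not pass. The 2 experiments had their own controls and their own sort days.

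Other genes of the membrane and of the families of the 5 genes were read from lists. They covered the membrane skeleton (16 of 23 genes found), membrane transport (17 of 23), other carbonic anhydrases (14 of 17) and tubulins (15 of 21). On CHT control and LY294002 plates, sptb (948 CPM), dmtn (503), add2 (381) and tmod4 (359) were highest in erythrocyte-like cells. Others were not: ca6 held 1.96 CPM there and 281 in neutrophil-like cells, add3a 5.42 and 119, and tmod2 17.3 and 84.9. In myeloid-like cells ca2 held 184 CPM against 2.43, tpm4a 12.2 against 0.96 and tubb5 3.79 against 0.16. Between stages the skeleton genes split. Of 13 tested over all cells, 4 were higher in the CHT and 3 lower, where 30.7% of all genes passed in either direction, with a median of -0.36 beside -0.18 for all genes. Dmtn, which bundles actin (6.05 on the log2 scale), and the beta spectrin sptb (5.17) were higher, while tpm4a, a tropomyosin (-4.03), and the actin capping tropomodulin tmod2 (-1.68) were lower. Of 12 transport genes 3 were higher and 2 lower (median -0.23), of 14 tubulins 5 and 4 (median 0.20, with tuba8l4 at 1.54), and of 4 other carbonic anhydrases 0 and 1 (median -1.69). In HSPC-like cells 5 of 13 skeleton genes were higher and 4 lower (median 0.42 beside -0.08, with 28.7% of all genes passing), among them dmtn (5.51), sptb (3.95), the adducin add2 (3.91) and tpm4a (-4.37), and of 8 transport genes 2 and 1, with the nucleoside transporter slc29a1b at 3.11.

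In the mutants, no skeleton gene passed over all cells (0 of 14 by edgeR, 7 at an unadjusted p under 0.05, median 0.23), while 3 of 13 transport genes (median 0.43), 1 of 4 carbonic anhydrases (median 1.67) and 5 of 11 tubulins (median 0.87) were higher and none was lower, beside a median of -0.002 for all genes, of which 11.9% passed. Those with the smallest p were ca6, a secreted carbonic anhydrase in mammals (2.51, SE 0.18), the alpha tubulin tuba1b (1.28), the glucose transporter slc2a1b (1.95) and the tubulins tubb5 (3.22) and tuba8l2 (0.93). At 1 to 10% globin, 1 of 9 skeleton genes (tmod4, 1.09), 2 of 8 transport genes (the blood group protein kel, 2.92, and slc2a1b, 1.94) and 3 of 8 tubulins (tuba1b, 1.19, and tuba8l, 0.84, among them) were higher, and 11.9% of all genes passed in either direction, so that the skeleton count was near the share of all genes. In the erythrocyte-like class of 7 clusters these were 4 of 11, 3 of 9 and 3 of 9, with kel at 3.28, tmod4 at 1.31, tuba1b at 1.32, slc29a1b at 0.97 and tuba8l at 0.87, beside 16.5% of all genes. The skin genes (6 of 6 in the bin, median 3.41, and 6 of 6 in the class) and the thrombocyte genes (3 of 5, median 1.06, and 5 of 6) were higher as well. In P1 and in myeloid-like cells none of the 4 lists had a gene that passed, with 0 to 3 genes a list at an unadjusted p under 0.05.

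The difference between the mutant effect and the LY294002 effect passed over all cells for 0 of 14 skeleton genes, 1 of 14 transport genes (slc2a1b, 2.43), 2 of 3 other carbonic anhydrases and 4 of 12 tubulins, where 2.87% of all genes passed. The carbonic anhydrases went in opposite directions, with ca6 at 2.48 and ca2 at -2.75 (median -0.42 over the 3). The tubulins had positive differences, with tuba8l at 1.42, tubb4b at 1.24 and tuba8l2 at 1.09 among them. At 1 to 10% globin, where 7.17% of all genes passed, 1 of 9 skeleton genes (tmod4, 1.04), 1 of 8 transport genes (kel, 2.80) and 3 of 9 tubulins (tuba1b, 2.01, tuba8l, 1.32, and tubb4b, 0.76) passed, and no carbonic anhydrase was tested. With LY294002 in the AGM, the adducin add3a was the one gene of these lists that passed, in neutrophil-like cells (1.53, adjusted p = 0.040) and in EHT-like cells (2.08, adjusted p = 0.0046). Of all genes, 0.144% passed in neutrophil-like and 2.14% in EHT-like cells. The EHT-like test had 2 plates against 2 (C1 and C2, L1 and L2), all of the early period. The former were sorted on day 1 and the latter on day 4, so that sort day and treatment cannot be told apart. In the CHT none passed with LY294002, where 0 to 0.592% of all genes passed, with 0 to 4 genes of a list at an unadjusted p under 0.05 by edgeR. Over all cells the medians of skeleton, transport, carbonic anhydrase and tubulin genes were 0.14 (11 genes), 0.22 (11), 1.48 (2) and -0.26 (10) in the CHT and 0.20 (12), 0.37 (12), 0.11 (4) and -0.01 (13) in the AGM, beside medians of 0.006 and -0.02 for all genes.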

How the data were processed

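Single cells were sorted into plates of 384 wells and sequenced by SORT-seq. Reads were aligned by the authors to transcripts of Zv9 (the submitters' processing notes name BWA, with no version), and the deposited values are their estimated counts of UMIs per gene and well after correction for UMI collisions, with no normalization. The gene IDs carried a symbol in 23916 of 26651 cases. Wells under 1500 UMIs were left out, and no doublet caller was used. Spike-in RNA stayed out of all totals.

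Groups were taken from the labels, and plates are the replicates. The mixed AGM plates entered no test, because the labels do not give the treatment of a well. Cells were scaled to 10000 UMIs, and log2 values without the 5 genes were clustered by k-medoids into 5 clusters (7 as an alternative). Clusters were named from 66 markers of the study. Counts were summed per plate, over all cells or over a class with at least 20 cells on a plate, rounded to whole numbers and tested with edgeR 4.0.16 (filterByExpr, TMM, quasi-likelihood test, Benjamini-Hochberg adjustment over all genes tested, threshold 0.05; limma 3.58.1, R 4.3.3), in 17 comparisons, with the sort period as a term in the AGM. SE is the absolute log2 difference over the root of the F statistic. DESeq2 1.42.0 was an alternative. Other steps used Python 3.11.15 with numpy 2.4.6, scipy 1.17.1 and pandas 2.3.3, and plots matplotlib 3.10.9. The tests were tested on simulated data. For LY294002 in the CHT neutrophil-like cells, and for the difference of effects in the erythrocyte-like class of 5 clusters, too few plates had 20 cells.

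Alternatives were DESeq2 and its size factors, no filter on low counts, a minimum of 3000 UMIs, no globin genes, no sort period term, the 5 genes kept in the clustering, 7 clusters, the 2% of cells with most UMIs left out and each plate left out. Clustering on log2 in place of linear values, the bins of 1 to 10% and of 2 to 5% globin, the tests in P1 and in the 7 clusters, HBE1 and hbz as globins (11 genes in place of 7), and leaving out skin-led or globin-rich cells were chosen after seeing the data. The members and gene lists were chosen with earlier results of these data known. Named are the 5 genes, at most 5 genes of the lists for skeleton, transport, carbonic anhydrases and tubulins per comparison by smallest p among those with an adjusted p under 0.05, and the 3 genes most like each member. Genes named beyond these, such as markers at 0, were chosen after their values were seen. Sequences of promoters and proteins were not used here. Transcript levels of the mutated genes are not reported here.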

Additional observations from a re-analysis of the deposited data

Results flagged for a closer look

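Single plates stood apart in 6 of 30 groups of 4 or 5 plates that were scanned, where chance gives about 1 in 20. In HSPC-like cells of the AGM controls, tubb1 stood at 56.8 CPM on C3 and at 31.6 to 32.6 CPM on the other plates. In neutrophil-like cells of the AGM controls, C4 held 50.3 CPM of cahz (the others 0 to 4.71 CPM) and 77.1 CPM of slc4a1a (the others 0 to 9.42 CPM). In neutrophil-like cells of the AGM with LY294002, L4 held 77.1 CPM of cahz (others 0 to 17.9 CPM), 11.4 CPM of rhag (others 1.93 to 4.48 CPM) and 31.2 CPM of epb41b (others 11.5 to 15.3 CPM). The neutrophil-like cells of C4 took in 1 cell with 10% or more globin and those of L4 took in 2. Without them C4 held 4.45 CPM of cahz and 17.8 CPM of slc4a1a, and L4 held 23.1 CPM of cahz, 3.15 CPM of rhag and 16.8 CPM of epb41b.

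The pten effect on cahz minus the LY294002 effect was 2.29 on the log2 scale over all cells and 1.80 in cells with 1 to 10% globin, both past the threshold in edgeR's test of the difference. On the mixed AGM plates, which entered no comparison, epb41b stood at 26.3 CPM on X3, above every AGM control plate (13.5 to 22.5 CPM).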

How the results depend on the processing

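The 5 genes kept their calls between stages over all cells under every alternative run, including each plate left out, and the count in HSPC-like cells lay between 4 and 5 with a plate left out. Without the filter on low counts, the members called rose to 1 for LY294002 in the AGM (epb41b, 0.95), 2 in its HSPC-like cells (epb41b 1.26 and slc4a1a 1.13), 1 in the CHT (cahz, -0.67), 1 in its myeloid-like cells (cahz, -1.91), 2 in pten mutants (with rhag, -0.51), 1 in their myeloid-like cells (cahz, 1.24) and 2 for the difference of effects at 1 to 10% globin (with slc4a1a, 0.56). DESeq2 called 1, 1 and 2 members for LY294002 in the AGM, in the CHT and for pten mutants over all cells. At 1 to 10% globin the count for pten was 1 with HBE1 and hbz counted and 1 at 2 to 5% globin, and it was 1 in cluster 2 of the 7 alone. The causes were not tested.

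With a plate left out, the count of members called ranged from 0 to 1 for LY294002 in erythrocyte-like cells, in myeloid-like cells and at 1 to 10% globin, from 0 to 1 for pten over all cells and for the difference of effects over all cells, from 1 to 4 in erythrocyte-like cells of 7 clusters, from 1 to 3 for pten at 1 to 10% globin and from 1 to 2 for the difference of effects there. In the other comparisons, apart from the stages in HSPC-like cells, it did not change.

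No called difference changed sign, and those that did had not passed the test. For LY294002 in the AGM, cahz was -0.11 with DESeq2, -0.14 without the filter, -0.063 without skin-led cells and -0.55 to 0.57 with a plate left out, against 0.01. Rhag was -0.065 without the filter, -0.097 without skin-led cells and, without cells of 10% or more globin, -0.53, and -0.24 to 0.20 with a plate left out, against 0.02. In HSPC-like cells rhag was -0.011 without those cells, and cahz ranged from -0.18 to 1.19 with a plate left out. For LY294002 in the CHT, rhag was -0.054 without the filter and -0.023 to 0.092 with a plate left out, and slc4a1a -0.0080 at 2 to 5% globin. In HSPC-like cells clustered on linear values, epb41b was -0.021, slc4a1a -0.14 and tubb1 -0.24, and tubb1 ranged from -0.0014 to 0.28 with a plate left out. In myeloid-like cells of the pten plates, tubb1 was -0.13 on linear values and -0.23 to 1.13 with a plate left out, and slc4a1a -0.68 to 0.077. In P1, cahz was 0.0066 with DESeq2, 0.0071 with its size factors and -0.21 to 0.18 with a plate left out, epb41b -0.041 without the filter and -0.044 to 0.11, and tubb1 -0.61 to 0.091. For the difference of effects at 2 to 5% globin, tubb1 was -0.092.

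No paired analysis was possible because the labels give groups no shared replicate numbers, and numbers were given in accession order. With 2 plates a group in the CHT, and 10 globin-rich cells in the AGM controls, a call rests on few plates and cells. Where a plate was left out of a pair, the lone plate was assumed to vary like the other groups.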

Other observations

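The mixed AGM plates, whose wells the labels do not assign to a treatment, held 0, 25.2 and 63.4 CPM of cahz on X1, X2 and X3, 1.43, 30.9 and 94.8 CPM of slc4a1a, 51.6, 47.6 and 47.1 CPM of rhag, 7.14, 10.5 and 26.3 CPM of epb41b and 13.3, 12.7 and 21.1 CPM of tubb1. They held 0, 1 and 3 cells with 10% or more globin, and 5, 14 and 9 cells with 5 or more rhag UMIs and under 0.1% globin. On the late LY294002 plates L3, L4 and L5 there were 10, 15 and 7 of the former. The latter were 1, 1 and 2 there, among 307, 55 and 96 cells with under 0.1% globin. L1 and L2 had 0 and 0 of the former, and 11 and 13 of the latter among 332 and 362 cells with under 0.1% globin.

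On L4, 275 of 347 cells had 0.1 to 1% globin, more than on any other AGM plate.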
